A study of Mus musculus with 8 samples.

Results

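Liver plasma protein transcripts were followed across arrays of sorted blood stem cells. The members were the genes Alb, Afp, Apoa1, Apoa2, Ttr, Trf, Fga, Fgb, Fgg and Ahsg, and every probe set that the array annotation assigns to 1 of these symbols alone was taken. This gave 19 probe sets for 9 of the 10 genes, out of 45037 probe sets that are not controls. Trf, the gene of the iron carrier transferrin, had none, because its probe set is listed with another gene as well. Of the 19 probe sets, 14 from 6 genes had a mean log2 signal above 2.72, the median over all probe sets, and were among the 22518 probe sets tested.

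The samples were haematopoietic stem cells sorted from mouse fetal liver on a C57BL/6 background, from wild type embryos and from Crebbp+/- embryos, which carry 1 mutant copy of the gene for the acetyltransferase CBP. The sort kept Sca-1+, Lin-, AA4.1+, c-Kit++ cells, the age is given as 14.5 days post coitum in one label and 14 in another, and each preparation combined 15 embryos. Each genotype has 2 numbered samples and each sample 2 arrays, which gives 8 arrays of biotin-labelled cDNA amplified from 12 ng of total RNA. The labels do not say what the mutant allele removes, whether samples of the same number share a litter, or whether repeat arrays came from separate cells, so repeat arrays were averaged and n = 2 samples per genotype. P-values of the genotype test then measure the spread between these samples, which may be technical.

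In the fetal liver, blood stem cells divide among hepatoblasts, the precursors of hepatocytes and bile duct cells. Hepatoblasts already secrete plasma proteins at a high rate: albumin and alpha-fetoprotein carry ligands in blood, apolipoproteins A-I and A-II build high-density lipoprotein, transthyretin carries thyroid hormone and retinol-binding protein, fibrinogen forms clots, and fetuin-A, the product of Ahsg, binds calcium. Blood stem cells are not known as a source of these proteins. The Sca-1, c-Kit and lineage gates select blood cells, and no label describes a gate against hepatocytes.

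The promoter windows of 4 members are shown because Alb and Afp, which are neighbours on chromosome 5, and Apoa1 were high in the same 3 samples, while Fga was high in 1 of them. They are RefSeq windows of GRCm38.p6 from 250 bases before to 50 bases after the start of the gene, written 5′ to 3′ along the gene. Capitals mark every match, on either strand, to GTTAAT, the core of the HNF1 site, or to TGTTTGC, a form of the forkhead site, which are 2 of the 4 motifs searched. HNF1 and the forkhead factors FOXA are liver regulators. Apoa2 was high in the same 3 samples as Alb, but its 2 windows, which hold neither GTTAAT nor TGTTTGC, are not shown.
Alb, chr5:90460620-90460919, plus strand: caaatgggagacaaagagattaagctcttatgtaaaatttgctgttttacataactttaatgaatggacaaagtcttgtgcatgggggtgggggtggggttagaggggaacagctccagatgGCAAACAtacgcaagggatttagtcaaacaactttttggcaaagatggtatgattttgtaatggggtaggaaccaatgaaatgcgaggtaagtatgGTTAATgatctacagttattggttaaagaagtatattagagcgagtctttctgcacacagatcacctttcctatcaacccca
Afp, chr5:90490464-90490763, plus strand: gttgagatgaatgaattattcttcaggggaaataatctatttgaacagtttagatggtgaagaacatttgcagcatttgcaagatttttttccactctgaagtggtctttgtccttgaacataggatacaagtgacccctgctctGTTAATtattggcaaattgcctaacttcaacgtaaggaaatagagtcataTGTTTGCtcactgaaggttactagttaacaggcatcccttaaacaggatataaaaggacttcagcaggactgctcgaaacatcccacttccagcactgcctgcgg
Apoa1, chr9:46228380-46228679, plus strand: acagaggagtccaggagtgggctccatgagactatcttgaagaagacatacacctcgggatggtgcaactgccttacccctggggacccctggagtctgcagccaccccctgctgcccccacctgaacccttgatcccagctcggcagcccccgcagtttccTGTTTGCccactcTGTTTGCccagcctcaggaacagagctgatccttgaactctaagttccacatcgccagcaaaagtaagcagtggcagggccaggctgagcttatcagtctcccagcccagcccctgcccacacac
Fga, chr3:83025903-83026202, plus strand: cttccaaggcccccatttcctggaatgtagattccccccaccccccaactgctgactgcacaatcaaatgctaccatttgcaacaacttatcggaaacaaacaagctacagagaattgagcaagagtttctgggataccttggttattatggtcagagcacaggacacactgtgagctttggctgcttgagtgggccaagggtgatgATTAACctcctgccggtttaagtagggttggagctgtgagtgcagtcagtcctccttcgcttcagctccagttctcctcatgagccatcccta
Counted from the start of the gene, the HNF1 letters begin at -32 in Alb, at -105 in Afp and, on the opposite strand, at -43 in Fga. The forkhead letters begin at -128 in Alb, on the opposite strand, at -55 in Afp, and at -88 and -75 in Apoa1. The motifs do not overlap in these windows. The table held 9 windows for 8 of the members, with 2 for Apoa2, and none for Ttr or Trf. GTTAAT was in 4 of the 9, those of Alb, Afp, Fga and Fgb, and in 7.1% of all 32851 windows of this length. TGTTTGC was in 4 of the 9, those of Alb, Afp, Apoa1 and Ahsg, against 5.07% of all windows. The other motifs searched were the TATA box TATAAA, in 2 of the 9 against 13.6% of all windows, and the CCAAT box, letters CCAAT, in 5 of the 9 against 37.4%. A match describes letters only.

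The sort and the RNA were checked first. Of 19 listed stem cell genes 17 had a probe set of their own and all 17 passed the signal filter, among them Kit, and Cd93, which encodes the AA4.1 antigen, while Ly6a, the gene of Sca-1, had no probe set with a single symbol. Cd3e, Cd5, Cd8a and Itgam, 4 of the 6 lineage genes with a probe set, stayed within the range of the bacterial and phage control probe sets on every array. The other 2 did not: Il7r read between 6.32 and 8.55 and Cd4 between 5.06 and 5.62 on the 8 arrays. Il7r differed between sample 2 and sample 1 by 1.12 (adjusted p = 0.073) for wild type and 1.04 (adjusted p = 0.12) for Crebbp+/-, and Cd4 by 0.14 and 0.28. Those 45 control probe sets match no mouse transcript and ran from 2.21 to 2.65 over all arrays. A signal at or under their highest value is called within the control range. The arrays' medians over all probe sets were 2.65 to 2.70, close to the top of that range. The RNA control for Gapdh had a 5′ signal below its 3′ signal by log2 differences of -1.22 in wild-type sample 1, -2.59 in wild-type sample 2, -0.89 in Crebbp+/- sample 1 and -1.88 in Crebbp+/- sample 2, and the Actb control gave -2.13, -3.19, -1.90 and -2.55 in the same order.

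At the brightest probe sets of Alb, Afp, Ttr, Apoa1 and Apoa2, wild-type sample 1 was lowest and wild-type sample 2 highest by sample mean, with both Crebbp+/- samples between them. At the 3 dimmer Ttr probe sets Crebbp+/- sample 2 had the highest mean. By sample mean the genotypes overlapped at all of these except the dimmest Ttr probe set, where both Crebbp+/- samples were above both wild-type samples. Fga was above the control range in wild-type sample 2 alone, and Fgb, Fgg and Ahsg left it on 1 or 2 arrays each. All values are GCRMA log2 signals, on which a step of 1 is a doubling. In these bulk samples, fewer cells of a type and less RNA per cell cannot be told apart.

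Alb encodes albumin, the main carrier protein of plasma, and has 1 probe set. Its signals were 2.61 and 2.25 on the arrays of wild-type sample 1, then 6.89 and 7.23 in wild-type sample 2, 5.63 and 6.07 in Crebbp+/- sample 1, and 5.94 and 5.53 in Crebbp+/- sample 2. The first sample was within the control range, every other array was more than 2 units above it, and all Crebbp+/- arrays lay between the wild-type samples. The wild-type samples differed by 4.63 (SE 0.32, limma adjusted p = 0.0012), with the spread between repeat arrays as the error, so this compares the preparations. The Crebbp+/- samples differed by -0.12 (SE 0.32, adjusted p = 0.89).

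Afp encodes alpha-fetoprotein, the fetal relative of albumin, and has 5 probe sets. The brightest read 3.60 and 3.76 in wild-type sample 1, then 8.49 and 8.51 in wild-type sample 2, 6.37 and 7.06 in Crebbp+/- sample 1, and 7.11 and 7.05 in Crebbp+/- sample 2. As for Alb, the Crebbp+/- arrays fell between those of the wild-type samples without overlap, but even the lowest arrays exceeded the control range. The wild-type samples differed by 4.82 (SE 0.28, adjusted p = 0.0012) and the Crebbp+/- samples by 0.37 (SE 0.28, adjusted p = 0.50). A pair of further Afp probe sets gave the same order of the wild-type and Crebbp+/- arrays, with differences between the wild-type samples of 3.49 (SE 0.27) and 3.39 (SE 0.28). The last 2 probe sets, designed from a sequence record that the other 3 do not use, stayed in the control range on all 8 arrays, with means of 2.35 and 2.41.

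Ttr encodes transthyretin and has 4 probe sets, which disagreed in level. The brightest read 2.32 and 2.32 in wild-type sample 1, then 7.03 and 7.39 in wild-type sample 2, 5.46 and 6.19 in Crebbp+/- sample 1, and 6.92 and 7.10 in Crebbp+/- sample 2. Here wild-type sample 1 was again alone in the control range, and Crebbp+/- sample 2 overlapped wild-type sample 2. The wild-type samples differed by 4.89 (SE 0.32, adjusted p = 0.0012) and the Crebbp+/- samples by 1.18 (SE 0.32, adjusted p = 0.081). With the probe sets of the gene averaged, the Crebbp+/- samples differed by 1.12 (adjusted p = 0.045). The next probe set gave a wild-type difference of 2.90 (SE 0.35, adjusted p = 0.0038) and a Crebbp+/- difference of 1.49 (SE 0.35, adjusted p = 0.056). The third gave 1.90 (SE 0.55, adjusted p = 0.064) and 1.57 (SE 0.55, adjusted p = 0.15), and its repeat arrays were up to 1.52 apart. The fourth stayed between 2.45 and 3.29 on every array and differed by 0.08 (SE 0.30) between the wild-type samples.

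Apoa1 and Apoa2 encode the main proteins of high-density lipoprotein. The brightest of 4 Apoa1 probe sets read 3.51 and 3.06 in wild-type sample 1, then 7.88 and 6.63 in wild-type sample 2, 6.02 and 5.15 in Crebbp+/- sample 1, and 6.58 and 6.23 in Crebbp+/- sample 2. Wild-type sample 1 was lowest and wild-type sample 2 highest on both arrays, although its weaker array was only just above the nearest Crebbp+/- array. The wild-type samples differed by 3.97 (SE 0.48, adjusted p = 0.0039) and the Crebbp+/- samples by 0.82 (SE 0.48, adjusted p = 0.37). The other 3 Apoa1 probe sets kept this order, with wild-type differences from 3.07 to 3.97.

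Apoa2 has 1 probe set, which read 4.02 and 3.45 in wild-type sample 1, then 6.21 and 6.53 in wild-type sample 2, 5.37 and 5.09 in Crebbp+/- sample 1, and 6.46 and 5.10 in Crebbp+/- sample 2. Wild-type sample 1 was again lowest, while 1 array of Crebbp+/- sample 2 reached the level of wild-type sample 2. Between the wild-type samples the difference was 2.63 (SE 0.46, adjusted p = 0.013). This call was lost without array 2 of wild-type sample 1 (2.35, adjusted p = 0.075), without array 2 of wild-type sample 2 (2.47, adjusted p = 0.060) and with no signal filter (adjusted p = 0.068). Repeat arrays agreed less for the apolipoproteins than for Afp: the mean gap between the 2 arrays of a sample was 0.73 to 0.96 for the Apoa1 probe sets and 0.63 for Apoa2, against 0.22 to 0.23 for the 3 tested Afp probe sets, 0.39 for Alb and a median of 0.29 over all probe sets tested.

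The fibrinogen genes Fga, Fgb and Fgg encode the 3 chains of the clotting protein and lie side by side on chromosome 3. Fga read 2.33 and 2.34 in wild-type sample 1, then 4.49 and 4.52 in wild-type sample 2, 2.33 and 2.34 in Crebbp+/- sample 1, and 2.35 and 2.35 in Crebbp+/- sample 2. Only wild-type sample 2 was above the control range, and both Crebbp+/- samples were in it, unlike those of Alb. The wild-type difference of 2.17 is given as a description without its p, since the probe set passed the signal filter only through that sample and therefore had to differ.

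Fgb, Fgg and Ahsg did not pass the filter and were not tested. Fgb had means of 2.66 and 2.52 in the wild-type samples and 3.11 and 2.53 in the Crebbp+/- samples. It exceeded the control range on 1 array of Crebbp+/- sample 1, at 3.70, and 1 of wild-type sample 1, at 2.80. Its mean was lowest in wild-type sample 2, where the brighter members were high. Fgg exceeded the control range on 1 array, at 2.72 in wild-type sample 2. Ahsg exceeded it on 1 array of each Crebbp+/- sample, at 3.09 and 3.02, while the repeat arrays of the same samples read 2.32 and 2.33. The mean of Fgb was 0.02 below the filter, and the tested probe sets nearest to it were the fourth of Ttr, 0.06 above, and Fga, 0.16 above.

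**Figure D1:**
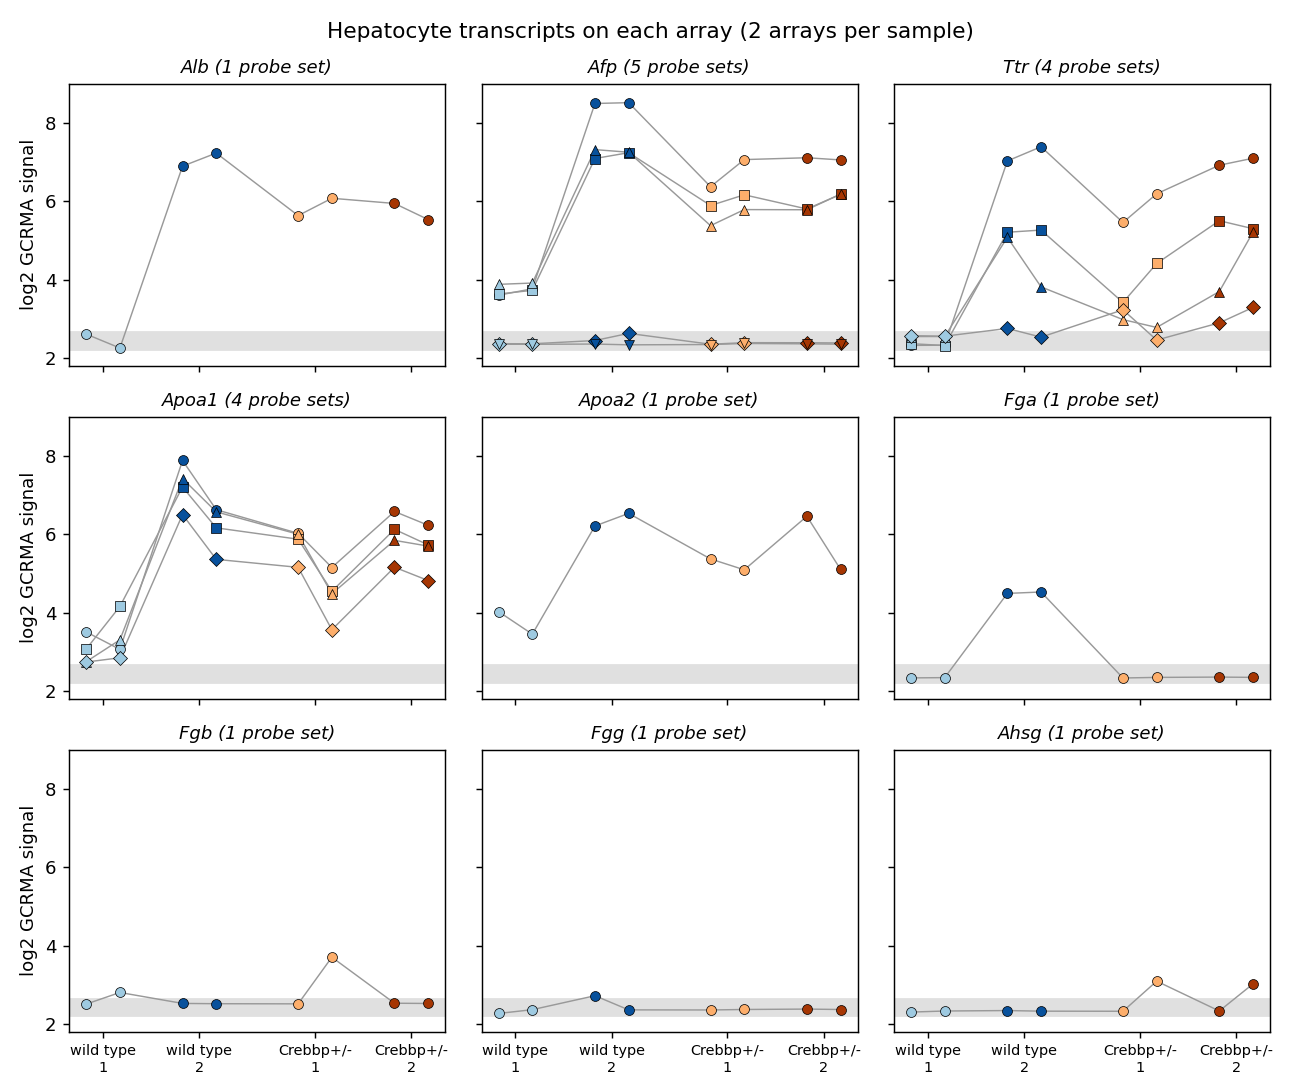
Log2 GCRMA signal of every probe set (one marker shape and line each) of 9 plasma protein genes on the 8 arrays, grouped by sample, with the grey band giving the range of bacterial and phage control probe sets. Wild-type sample 1 is at the bottom and wild-type sample 2 at or near the top for Alb, Apoa1, Apoa2, 3 of the Afp and 3 of the Ttr probe sets, and Fga leaves the band in wild-type sample 2 alone.

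Across the members, the difference between the wild-type samples was large beside that of the array as a whole. The members were chosen with earlier results of these data known, so these counts and ranks, like those that follow, are a description. Apart from Fga, all tested members would pass the filter without wild-type sample 2, and 11 of these 13 probe sets, from 5 genes, were higher in wild-type sample 2 than in wild-type sample 1, against 4.27% of the 22262 probe sets that would pass in this way. With Fga the count was 12 of 14 against 4.34% of all 22518, and 0 were lower, against 8.7%. The median difference was 3.26 over the 14 and -0.02 over all 22518. Ranked by this difference, the first 7 of the 22518 probe sets were members, from Ttr, Afp, Alb and Apoa1, and 10 of the first 11. The cut at 11 falls on a member, and the next member, Apoa2, ranked 17. Differences above 2 were found for 48 probe sets (0.213%), of which 12 were members and 3 belonged to other listed hepatocyte genes, and differences below -2 for 181. The 5 untested probe sets are described above by their values. The count of members higher in wild-type sample 2 was between 9 and 13 under the other settings that kept them and between 10 and 13 with 1 array left out.

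The Crebbp+/- samples differed by smaller amounts at most of these probe sets. Of the 14 probe sets 0 passed in either direction by limma, where 1.67% of all probe sets tested were higher in sample 2 and 3.15% lower, and the median difference was 0.54 against 0.01 over all probe sets. The differences ran from -0.12 to 1.57, and the members with the largest were 3 probe sets of Ttr. At the third of these the difference, 1.57, was near that between the wild-type samples, 1.90, and at the fourth Ttr probe set the Crebbp+/- difference was the larger, 0.25 against 0.08. The members' SD between samples had a median of 2.31 among wild-type and 0.38 among Crebbp+/- samples (n = 2 each), where the medians over all probe sets tested were 0.25 and 0.21.

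Whether the samples differed alike within each genotype was tested as an interaction of genotype and sample number, again against the spread between repeat arrays. With 2 samples per genotype, this compares the 4 preparations and cannot test an effect of genotype. The labels also do not say that the number pairs the samples. For Alb the interaction was -4.75 (SE 0.45, adjusted p = 0.094) and for Afp -4.46 (SE 0.40, adjusted p = 0.094), so neither passed over 22518 probe sets. With the probe sets of each gene averaged, both passed (adjusted p = 0.017 for each), and with no signal filter, where it did not have to pass one, Fga was called (-2.16, adjusted p = 0.0050). By limma 0 of 22518 probe sets passed (0%), while the unadjusted p was under 0.05 for 12 of the 14 members, all with a lower value in this contrast, against 2.93% of all probe sets lower and 8.13% in either direction. Without Fga this held for 11 of 13.

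**Figure D2:**
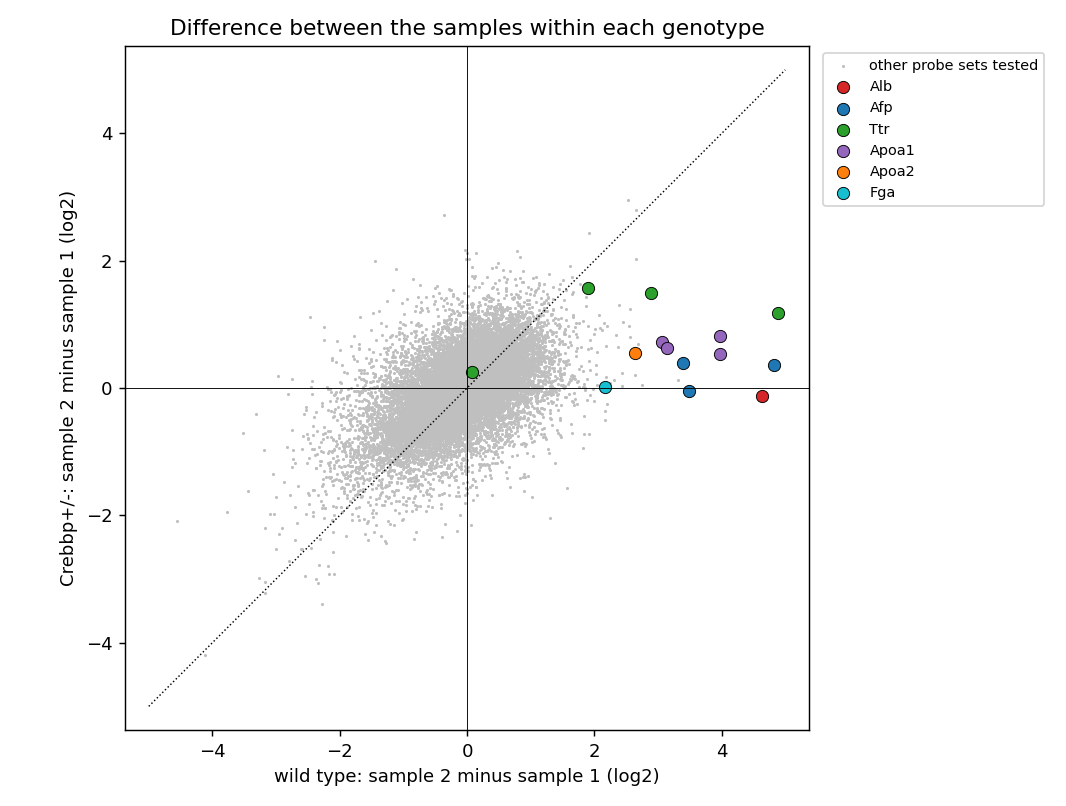
Difference between sample 2 and sample 1 for wild type (horizontal axis, log2) and for Crebbp+/- (vertical axis, log2) for each of 22518 probe sets, with the 14 tested members coloured by gene and a dotted line where both are equal. Of the members, 12 lie between 2.17 and 4.89 on the horizontal axis and between -0.12 and 1.49 on the vertical axis, to the right of nearly all grey points.

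The order of the samples was shared by most members. Both arrays of wild-type sample 1 were below all 6 other arrays at 12 of the 14 probe sets, from Alb, Afp, Ttr, Apoa1 and Apoa2, against 5.28% of all probe sets. Both arrays of wild-type sample 2 were above all 6 others at 9, against 9.12%, and both conditions held for 8, against 0.817%. Counted over all 19 probe sets, tested or not, these conditions held for 12, 10 and 8. The exceptions at the top were Ttr and Apoa2, where Crebbp+/- sample 2 reached wild-type sample 2. Mean signals of both Crebbp+/- samples fell between those of the wild-type samples at 11 of the 14, against 8.93%, and at 10 of the 13 without Fga, whose Crebbp+/- samples and wild-type sample 1 were all in the control range. Probe sets of a gene share their transcript, and all share the same 8 arrays, so these counts are not independent. With 4 samples no correlation across samples was computed.

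The position of the Crebbp+/- samples between the wild-type samples is given as a description, with no test between genes. Set on a scale from wild-type sample 1 at 0% to wild-type sample 2 at 100% of the log2 difference, Alb stood at 73.9% and 71.4% in the Crebbp+/- samples 1 and 2, and the brightest Afp probe set at 62.9% and 70.5%. Apoa1 stood at 58.0% and 78.6%, Apoa2 at 56.7% and 77.5%, and Ttr at 71.6% and 95.9%. For Alb and Ttr the lower end of the scale is in the control range, and Apoa1 repeat arrays were 0.73 apart on average. Fga stood at 0.081% and 0.63%, with both samples in the control range.

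No member differed between genotypes past the test. The mean of Alb was 4.75 ± 3.28 (SD, n = 2) for wild type against 5.79 ± 0.08 for Crebbp+/-, and Crebbp+/- minus wild type was 1.05 (SE 1.53, limma adjusted p = 0.99). Afp differed by 0.80 (SE 1.59), Ttr by 1.65 (SE 1.65), Apoa1 by 0.73 (SE 1.34), Apoa2 by 0.45 (SE 0.91) and Fga by -1.08 (SE 0.72), each with an adjusted p of 0.99. For each of the 6 genes the difference was smaller than the SD between the wild-type samples. Over the 14 probe sets the median difference was 0.47 against 0.02 over all, 0 passed and 0 had an unadjusted p under 0.05, where 0% and 4.84% of all probe sets tested did.

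The sign of the difference depended on which samples were compared. Within the samples numbered 1, Crebbp+/- was higher by 3.42 in Alb, 3.03 in Afp, 3.50 in Ttr, 2.30 in Apoa1 and 1.49 in Apoa2. Within the samples numbered 2 it differed by -1.32, -1.42, -0.20, -0.85 and -0.59 in the same genes. Such a change of sign, higher within 1 and lower within 2, was seen at 11 of the 14 probe sets and at 16.8% of all, and at 10 of 13 without Fga. Without wild-type sample 1 the genotype differences became -1.27 for Alb, -1.61 for Afp, -0.79 for Ttr, -1.26 for Apoa1 and -0.87 for Apoa2, and without wild-type sample 2 that of Fga became 0.0077. Both samples of one genotype lay above both of the other at 1 of the 14 probe sets, the fourth of Ttr, against 31% of all probe sets tested. Counted over all 19 probe sets, tested or not, this held for 3. The added ones were an Afp probe set in the control range and Ahsg. Ahsg means were 2.71 and 2.68 in Crebbp+/- against 2.32 and 2.33 in wild type, through 1 array of each Crebbp+/- sample.

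**Figure D3:**
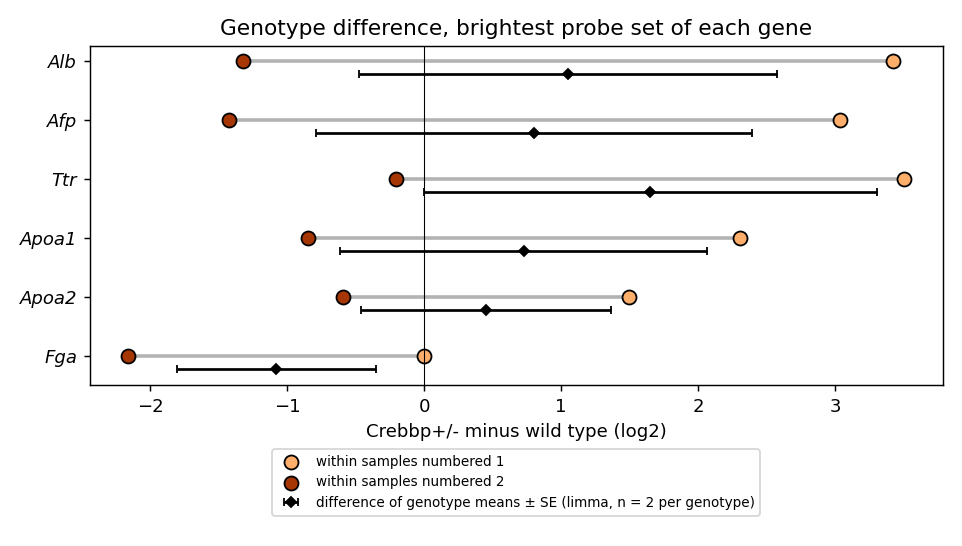
Crebbp+/- minus wild type (log2) for the brightest probe set of 6 genes within the samples numbered 1 (light circles) and numbered 2 (dark circles), with the difference of genotype means and its limma standard error (black diamonds, n = 2 per genotype). Alb, Afp, Apoa1, Apoa2 and Ttr have one circle on each side of 0, and for each of them the mean difference is no larger than its standard error.

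Other hepatocyte genes followed in part. Of 59 listed further secreted hepatocyte proteins 53 had a probe set, 37 stayed in the control range on every array, and 13 passed the signal filter. Of these 13, 4 were higher in wild-type sample 2 than in wild-type sample 1 and 0 lower, against 4.34% and 8.7% of all probe sets tested, with a median difference of 0.17. Kng1, Serpina6 and Rbp4, 3 of the 4, passed the filter only through wild-type sample 2 and therefore had to differ. Igfbp1, which was not called, also passed only through that sample. Of the 9 genes that would pass without it, 1 was higher. That gene was Apom, which encodes an apolipoprotein that carries sphingosine-1-phosphate. Its brighter probe set read 3.98 and 3.47 in wild-type sample 1, then 7.02 and 7.07 in wild-type sample 2, and 4.04, 5.05, 4.13 and 5.20 on the Crebbp+/- arrays. It was highest in wild-type sample 2, with a wild-type difference of 3.32 (SE 0.47, adjusted p = 0.0064), and its Crebbp+/- samples stood at 24.7% and 28.3% of that difference. The other tested probe set of Apom differed by 0.80 (adjusted p = 0.30).

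Kng1, the gene of kininogen, read 2.39 and 2.40 in wild-type sample 1, 5.06 and 4.10 in the other wild-type sample, and between 2.42 and 3.03 on the Crebbp+/- arrays. Its difference between the wild-type samples was 2.18. The other 2 of the 4, named after their values were seen, were Serpina6, which encodes the corticosteroid carrier of plasma, at 2.01, and Rbp4, the retinol-binding protein that travels with transthyretin, at 1.85. Kng1, Serpina6 and Rbp4 were in the control range in wild-type sample 1, so the sizes are uncertain. The 3 brightest genes of the list were not higher there: Serpinf1, Igf2 and F5 differed by -0.28, -0.62 and -0.38 between the wild-type samples, and none of these passed. Among the 37 genes in the control range throughout were Apob, Apoc3, Apoh, F2, Hpx, Ambp and Vtn, all abundant liver products, named after their values were seen. Plg and Itih2, not tested, left that range on 1 array of wild-type sample 2 alone, at 2.92 and 2.73. Serpinc1, also untested, left it on 1 array of Crebbp+/- sample 2, at 2.83.

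Few enzymes and regulators of hepatocytes passed the filter. Of 40 listed enzymes and intracellular proteins 36 had a probe set, 22 stayed in the control range, 6 passed the filter and 0 differed between the wild-type samples by limma, where 4.34% of all probe sets tested were higher and 8.7% lower, so that 0 of 6 is near the background. Tfr2, a transferrin receptor that erythroid cells also express, had the largest difference, 1.22 (SE 0.33, adjusted p = 0.053), Fah, an enzyme of tyrosine breakdown, differed by -1.12 (SE 0.32, adjusted p = 0.060), and the bright genes Ttpa and Cyp27a1 by 0.22 each. Of the untested enzyme genes, Ass1, Slco1b2 and Fabp1 left the control range on 1 array of wild-type sample 2 alone, at 3.34, 2.91 and 2.69. Hamp left it on 1 array of wild-type sample 2, at 2.74, and 1 of Crebbp+/- sample 2, at 2.89. On 1 array alone, Gnmt left it in wild-type sample 1, Tdo2 in Crebbp+/- sample 1, and Fbp1 and Asgr2 in Crebbp+/- sample 2. These were named after their values were seen. Of 20 liver transcription factors 18 had a probe set, 5 passed the filter and 1 differed, against the same background. This was Cebpa, a regulator of both hepatocytes and myeloid cells, which was higher in wild-type sample 2 by 0.60 (SE 0.14, adjusted p = 0.036) and differed by 0.60 in Crebbp+/- as well (adjusted p = 0.059). Hnf4a, a nuclear receptor that governs hepatocyte genes, read between 9.15 and 9.68 on all arrays and differed by 0.16 (SE 0.15). Hhex and Nr0b2 differed by -0.18 and -0.30, while Foxa1, Foxa2, Onecut1 and Nr1h4 stayed in the control range. Foxa3, which did not pass the filter and was not tested, left that range on both arrays of wild-type sample 2, at 2.87 and 3.53. Of the wild-type sample 1 arrays, 1 also exceeded it, at 2.72, beside a repeat at 2.40. The Crebbp+/- arrays read 2.25 to 2.40 for Foxa3. Prox1, also untested, exceeded the range on 1 array alone, at 2.69, from wild-type sample 1. Foxa3 and Prox1 were named after their values were seen.

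Of 14 hepatoblast surface and epithelial genes 6 passed the filter and 0 differed between the wild-type samples by limma, which is near the background of 4.34% higher and 8.7% lower. Dlk1, a surface protein used to isolate hepatoblasts, read 8.11 and 7.96 in wild-type sample 1, then 8.15 and 7.95 in the other wild-type sample, a difference of 0.01 (SE 0.28, adjusted p = 0.99). Krt18, Met and Gpc3 differed by -0.16, -0.23 and 0.29. Dsp, a desmosome gene, differed by 1.52 (SE 0.78, adjusted p = 0.26), through 1 array of wild-type sample 2 at 5.52 beside a repeat at 2.57. It passed the filter only through that sample, and of the 5 genes that would pass without it 0 were higher there. Cdh1, Krt8, Krt19 and Cldn1 stayed in the control range on every array. Epcam, not tested, left it on both arrays of wild-type sample 1, at 3.65 and 2.74, and on 1 of Crebbp+/- sample 2, at 2.92. In wild-type sample 2 Epcam read 2.32 and 2.62, within the range. Spint1, also untested, left it on 1 array of Crebbp+/- sample 2, at 3.05. Epcam and Spint1 were named after their values were seen.

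**Figure D4:**
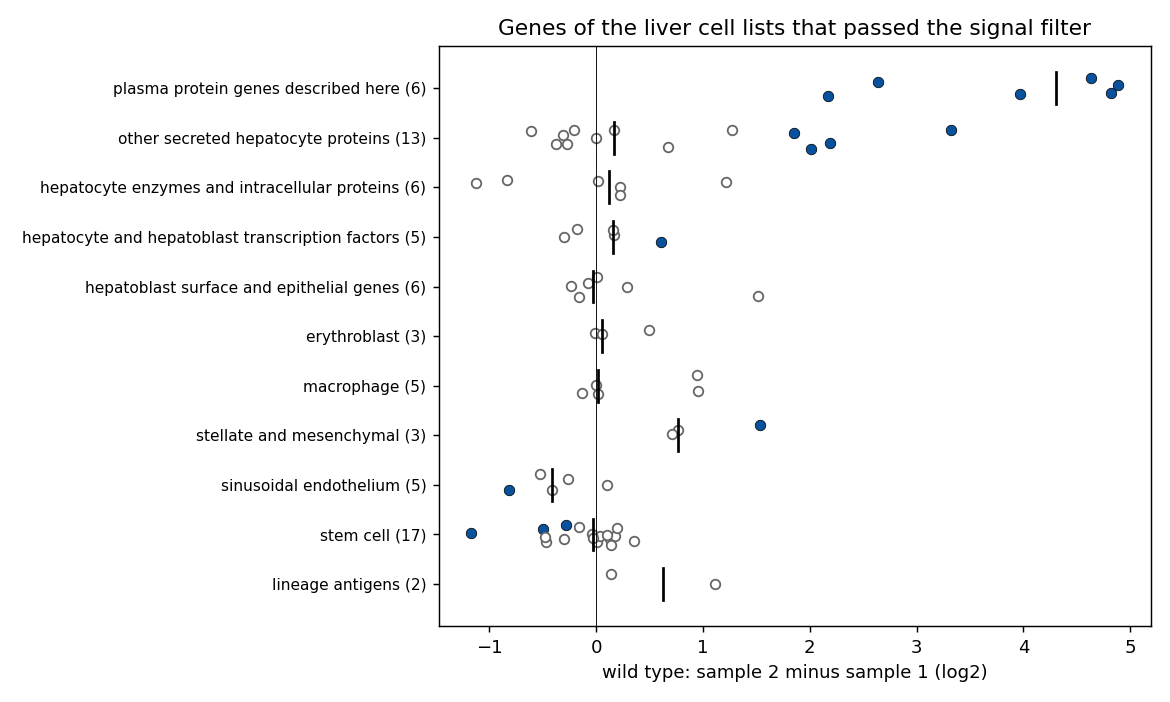
Difference between the wild-type samples (sample 2 minus sample 1, log2) for each gene of 11 lists that passed the signal filter, 1 point per gene at its brightest probe set, filled where the limma adjusted p was under 0.05, with vertical bars at list medians and the number of genes in brackets. All 6 plasma protein genes lie above 2 and are filled, and 4 of 13 other secreted hepatocyte proteins are filled, where Fga and 3 of these 4 passed the filter only through wild-type sample 2.

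Markers of other fetal liver cells and measures of the RNA varied over the same samples. Summed over the 9 members, the linear signal was 67.6 and 919 in the wild-type samples 1 and 2 and 330 and 479 in the Crebbp+/- samples. The sum over 16 macrophage genes was 1034 and 1876 in wild type and 751 and 2067 in Crebbp+/-, most of it from Csf1r, a receptor also found on myeloid progenitors, while 9 of the 16 stayed in the control range, among them Cd5l, Clec4f, Marco, Timd4, C1qa and C1qc. Others left it, in samples of either number. Adgre1, the F4/80 antigen, read 3.11 and 3.04 in wild-type sample 2 and 3.07 on 1 array of Crebbp+/- sample 2. It read at most 2.37 on the other 5 arrays. C1qb reached 4.45 on 1 array of wild-type sample 2 and 5.26 on 1 of Crebbp+/- sample 2, and read 2.84 and 2.70 in Crebbp+/- sample 1. Mrc1 read 3.24 and 3.98 in Crebbp+/- sample 2, with 1 array of Crebbp+/- sample 1 at 2.79. Slc40a1 reached 3.10 on 1 array of Crebbp+/- sample 1 and 3.30 on 1 of Crebbp+/- sample 2. Hmox1 read 2.66 and 2.87 in wild-type sample 1 and 2.95 and 3.79 in Crebbp+/- sample 2. Adgre1, Mrc1, Slc40a1 and Hmox1 were named after their values were seen. Csf1r, C1qb and Cd68 differed by 0.95 (adjusted p = 0.051), 0.94 and -0.14 between the wild-type samples. Of the 5 macrophage genes that passed the filter, 0 differed between the wild-type samples by limma, while Csf1r was higher in Crebbp+/- sample 2 than in sample 1 by 1.59 (adjusted p = 0.023). The sum over 15 stellate and mesenchymal genes was 232 and 402 in wild type and 235 and 349 in Crebbp+/-. Pdgfrb was higher in wild-type sample 2 by 1.53 (SE 0.35, adjusted p = 0.030), 1 of 3 genes that passed the filter, against 4.34% of all probe sets. Postn and Mest, the other two, differed by 0.77 (adjusted p = 0.14) and 0.71 (adjusted p = 0.23), and the median of the 3 was 0.77 against -0.02 over all probe sets. The list had 9 genes in the control range, among them Des, Dcn, Lum and Acta2. Col1a2 and Cxcl12, not tested, left it on 1 array of Crebbp+/- sample 2, at 5.03 and 3.24. Col1a1, also untested, left it on 1 array of wild-type sample 1, at 3.34, and 1 of Crebbp+/- sample 1, at 2.89. Col1a1, Col1a2 and Cxcl12 were named after their values were seen.

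Of 12 endothelial genes 5 passed the filter and 1, Emcn, differed, by -0.81 (SE 0.21, adjusted p = 0.043), where 8.7% of all probe sets were lower. Tek, Tie1, Pecam1 and Fcgr2b differed by -0.41, -0.26, -0.52 and 0.10. Stab2 and Cdh5, not tested, left the control range on 1 array of wild-type sample 2 alone, at 2.92 and 2.77. Fcgr2b, Stab2 and Cdh5 were named after their values were seen. The list sums were 1266 and 966 in wild type and 1080 and 985 in Crebbp+/-. Of the 18 erythroblast genes 14 had a probe set, 3 passed and 0 differed between the wild-type samples by limma. Tfrc, Gata1 and Slc4a1 differed by -0.01, 0.50 and 0.06, and Slc4a1 reached 3.31 and 4.37 on 1 array each of Crebbp+/- samples 1 and 2. Hba-a1, Alas2 and Epb42 were among 6 genes in the control range. Hbb-y, Rhd, Hbb-bh1 and Sptb, not tested, left it on 1 array of Crebbp+/- sample 2, at 3.39, 2.85, 2.70 and 2.73. Klf1, also untested, left it on 1 array of Crebbp+/- sample 1, at 2.75. These untested genes were named after their values were seen. Sums over the erythroblast genes were 1658 and 1648 in wild type and 2140 and 1607 in Crebbp+/-. Of the 17 stem cell genes 3 were lower in wild-type sample 2, against 8.7% of all probe sets, and 0 higher, against 4.34%: Gata2 by -1.17 (SE 0.10, adjusted p = 0.0017), Runx1 by -0.50 (SE 0.10, adjusted p = 0.020) and Cd93 by -0.28 (SE 0.07, adjusted p = 0.035). Gata2 also differed in Crebbp+/-, by -0.76 (adjusted p = 0.016). Myb and Cd34 differed by 0.01 and 0.13 between the wild-type samples.

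The Gapdh control gap differed by -1.37 between the wild-type samples and by -0.996 between the Crebbp+/- samples, and that of Actb by -1.05 and -0.66, while the median difference over tested members was 3.26 and 0.54. The 3 probe sets for 18S ribosomal RNA were higher in wild-type sample 2 by 0.78, 0.51 and 1.73 and differed by -0.19, 0.20 and 0.47 in Crebbp+/-. The part of these measures and of the other cell types in the result was not tested.

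The genes whose pattern was most like that of the members were found by the distance over the 4 samples, after centring, to the median profile of the 6 tested member genes, which was -2.58 in wild-type sample 1, 1.62 in wild-type sample 2, 0.09 in Crebbp+/- sample 1 and 0.54 in Crebbp+/- sample 2. The brightest probe sets of the members, which define this profile, lay at distances from 0.35 for Apoa1 to 2.39 for Fga, and a gene equal in all samples would lie at 3.10. Among 10594 other genes the nearest were Hcfc1r1 at 1.36, Ebf1 at 1.48 and Mt2 at 1.51. Hcfc1r1 read 8.64 and 6.18 on the arrays of wild-type sample 1, and its wild-type difference of 2.43 did not pass (limma adjusted p = 0.085). Its other tested probe set differed by 0.83 (adjusted p = 0.17). Ebf1, a B lineage transcription factor, reached 8.14 in Crebbp+/- sample 2 against 7.51 in wild-type sample 2, so its top sample was another, and its second tested probe set differed by -0.01. Mt2, a metallothionein that liver cells express strongly, read 5.13, 7.77, 6.13 and 6.34 in wild-type samples 1 and 2 and Crebbp+/- samples 1 and 2. The next were Rai2, Tubb2a, Rnf225, Sf3a2, Txnrd2, Apom, Cotl1, Ralgapa1 and Zdhhc14, at distances from 1.57 to 1.83. Of these, Rai2, Txnrd2, Ralgapa1 and Zdhhc14 did not pass between the wild-type samples (limma adjusted p = 0.084, 0.30, 0.054 and 0.065). Txnrd2 read 3.38 and 7.43 on the arrays of wild-type sample 2. Of the listed hepatocyte genes Apom ranked 9, Serpina6 34, Kng1 42 and Rbp4 124.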

How the data were processed

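The authors deposited log2 signals from Affymetrix mouse expression arrays, which were background-corrected and normalized with GCRMA per the submitters' processing notes. The version of GCRMA was not given in the sources used here, and no scanner files were used. The number of arrays limits the precision. Of 45101 probe sets 64 were controls. Gene names came from the platform annotation, checked against GRCm38.p6 gene identifiers: 34945 probe sets had 1 symbol, 932 several and 9160 none listed here, 34741 matched, with unchanged symbols. Those with several were not used.

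Probe sets with a mean above 2.72 entered the fits, made with limma 3.58.1 (R 4.3.3, trended eBayes). Benjamini-Hochberg adjustment ran over 22518 p-values, with a threshold of 0.05, two-sided. Genotypes were compared on sample means, with 2 residual and 4.75 total degrees of freedom. An exact permutation test of 2 against 2 samples cannot go below 0.33 and was not used. Samples were compared on 8 arrays with 4 residual and 7.54 total degrees of freedom. Both fits were checked on simulated data.

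A list gene's value was that of its brightest probe set. In each list the 3 brightest genes and the 2 with the largest wild-type difference were named, and for likeness the 12 nearest genes by Euclidean distance. Members and lists were chosen with earlier results of these data known. The control range was added after the values were seen. Alternatives covered replication, a block, filters, scaling, a floor, the trend, averaging of probe sets and omission of each sample and array.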

Additional observations from a re-analysis of the deposited data

How the results depend on the processing

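With only 2 samples per genotype, and repeat arrays as the error for comparisons of samples, the tests tell preparations apart better than genotypes. Signals in the control range limit the size of differences. No member was called between genotypes under any alternative run. Taking all 8 arrays as independent called 1 probe set, not a member. Leaving out 1 sample or array moved the genotype difference from -1.61 to 3.22 for Afp, from -1.26 to 2.71 for Apoa1, from -0.79 to 4.09 for Ttr, from -0.87 to 1.77 for Apoa2, from -1.27 to 3.37 for Alb and from -2.16 to 0.0077 for Fga. The sample number as a replicate block gave 0 calls, with a Ttr difference of 1.65 (adjusted p = 0.35). Same-numbered samples deviated alike (correlation 0.55 over 22518 probe sets), but the labels do not say that the number pairs them.

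Between the wild-type samples, calls numbered 2937, 1328 with no filter, 1636 with no trend, and 1257 to 2063 with 1 array left out. Between the Crebbp+/- samples they numbered 1086, 237 with no filter, 78 with no trend, 1987 over the upper 25% of probe sets, and 0 to 933 with 1 array left out. The Alb difference between the Crebbp+/- samples ran from -0.34 to 0.10 and that of Apoa2 from -0.13 to 1.23 with 1 array left out. The interaction was called at 16 probe sets with no filter, 1 of them a member. No member was among the upper 25%, so no member value exists there. The cause was not tested.

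List medians between the wild-type samples also changed with the settings. With no filter, which changes the genes included, they were 0.0011 for transcription factors, 0.0012 for mesenchymal and -0.00023 for endothelial genes. Over the upper 25% they were -0.38 for secreted proteins, 0.72 for enzymes and 0.95 for macrophage genes. Quantile normalization gave 0.26 for transcription factors and 0.059 for stem cell genes, and median centring 0.052 for stem cell genes. With 1 array left out, transcription factors ran from -0.26 to 0.19.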
